A study of Mus musculus with 12 samples.

Results

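The SR proteins and the heterogeneous nuclear ribonucleoproteins (hnRNPs) are the 2 large families of RNA-binding proteins that set how exons are joined. Members were taken by name, as every gene of the deposited count table called Srsf followed by a number or Hnrnp followed by letters or digits. This gave 31 of 49492 genes, 11 SR genes and 20 hnRNP genes, with 99 of the 42989 peaks of the deposited peak table. All 31 genes passed the filter on low counts and were tested, and 98 of the 99 peaks were tested.

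The samples were mouse skin in 2 conditions, labelled control and UV, with 3 samples in each. Every sample had 2 libraries: RNA bound by an antibody against N6-methyladenosine (m6A, a methyl group on the adenosines of RNA), called IP, and the input RNA. Strain, age, the kind, dose and timing of UV and the antibody were not found in the labels. Nothing says that samples of a condition came from separate animals, so p-values measure the spread between these libraries alone. The main enrichment fits did not pair the IP and input of a sample. Fits with the sample as a block are given where their calls differed. The 12 libraries held 24126662 to 92163619 reads in genes, and counts of a member ran from 12 reads upward, the lowest being in Srsf12. Skin is a mixed tissue, so fewer cells of a type and less RNA per cell cannot be told apart.

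SR proteins carry a domain rich in arginine and serine, bind exonic enhancers and recruit the splicing machinery. Many hnRNPs bind intronic or exonic silencers, package nuclear RNA and oppose SR proteins, and several also act in export, stability and translation. SR and hnRNP genes are known for regulating themselves through exons that send their own transcript to nonsense-mediated decay. Members of both families have been tied to m6A: hnRNPA2B1 as a proposed nuclear reader, hnRNPC and hnRNPG as proteins that reach sites opened by the methyl group, and SRSF3 as a partner of the reader YTHDC1. In MeRIP-seq the ratio of IP to input rises with the methylated share of a gene's RNA, and it also depends on where the reads of a transcript lie.

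Peaks lay over transcript starts in part of the family, and the starts are shown for that reason. RefSeq (GRCm38.p6) held starts for 29 of the 31 genes, 41 in all, and a peak covered some of the first 30 transcribed bases at 11 starts in 11 genes. The share of all RefSeq starts under a peak was not counted, so this number is not read as a trait of the family. The 6 shown first are those of the 11 whose RefSeq start lay within 5 bases of the gene's first base in the count table. Hnrnph1 and Srsf9 are shown as 2 genes with no peak at all. Lower case marks the 30 bases before the start and capitals the first 30 transcribed bases, 5′ to 3′ on the gene's strand. All coordinates are GRCm38, counted from 1.
Hnrnpa0 chr13:58128527-58128586 (minus strand): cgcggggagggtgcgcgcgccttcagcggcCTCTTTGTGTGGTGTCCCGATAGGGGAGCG
Hnrnpd chr5:99978909-99978968 (minus strand): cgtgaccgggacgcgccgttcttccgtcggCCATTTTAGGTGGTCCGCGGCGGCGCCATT
Hnrnpul1 chr7:25754730-25754789 (minus strand): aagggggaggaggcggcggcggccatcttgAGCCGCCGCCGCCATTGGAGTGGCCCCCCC
Srsf2 chr11:116853065-116853124 (minus strand): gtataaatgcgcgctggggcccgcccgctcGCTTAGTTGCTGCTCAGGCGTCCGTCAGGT
Srsf5 chr12:80945469-80945528 (plus strand): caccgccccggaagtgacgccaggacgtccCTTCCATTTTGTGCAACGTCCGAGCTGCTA
Srsf7 chr17:80207276-80207335 (minus strand): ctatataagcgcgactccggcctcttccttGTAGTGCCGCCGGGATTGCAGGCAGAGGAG
Hnrnph1 chr11:50376960-50377019 (plus strand): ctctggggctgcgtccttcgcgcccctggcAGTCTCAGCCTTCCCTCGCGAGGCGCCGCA
Srsf9 chr5:115327147-115327206 (plus strand): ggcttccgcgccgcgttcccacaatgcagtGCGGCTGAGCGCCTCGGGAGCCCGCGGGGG
The peaks over the starts of Hnrnpd, Hnrnpul1 and Srsf5 were listed in both arms, and those of Hnrnpa0, Srsf2 and Srsf7 in the UV arm. GGAC, a common form of the m6A consensus, was searched on the transcript strand in the first 50 transcribed bases. It was in none (0) of these 6 starts with a peak, in 7 of all 41 member starts (17.1%) and in 18.9% of the 32851 starts of the RefSeq table. Outside the 6, the Hnrnpk start with a peak held it, and no absence is read from 6 starts. The run CCATT, picked after the sequences were seen, was in 3 of the 6 starts with a peak, in 6 of the 41 member starts (14.6%) and in 3.32% of all starts. It was read on the same strand and can share a C with GGAC. The first transcribed base was A in 1 of the 6 (Hnrnpul1), against 11 of the 41 member starts (26.8%) and 34.4% of all starts. Outside the 6, the Srsf6 start with a peak held CCATT and began with A.

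Input levels, given as CPM (reads scaled by depth and TMM) per kb of exon, ran from a mean of 170 in Hnrnpa1 to 0.17 in Srsf12. Hnrnpa1, a classic splicing repressor, was highest at 168, 171 and 163 CPM per kb in control and 176, 175 and 169 in UV. Hnrnpab, an A/B-type protein that also binds single-stranded DNA, followed at 127, 124 and 138 CPM per kb in control and 138, 145 and 129 in UV. Hnrnpa3 stood at 119, 99.8 and 118 CPM per kb in control and 139, 143 and 130.5 in UV, and here the UV inputs lay above the control inputs without overlap.

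Among SR genes Srsf5 was the most abundant, at 92.5, 81.0 and 87.3 CPM per kb in control and 87.7, 89.8 and 85.7 in UV. Srsf1, the founding SR protein, followed at 31.6, 37.3 and 33.4 CPM per kb in control and 35.4, 36.5 and 34.3 in UV, and Srsf11 at 29.2, 31.4 and 30.3 CPM per kb in control and 34.9, 38.0 and 37.9 in UV. The 2 conditions overlapped for Srsf5 and Srsf1 but not for Srsf11. Hnrnpa2b1, with a mean of 111 CPM per kb, and Hnrnpc, with 79.5, were among the 8 most abundant members. Srsf3 was much lower, at 16.4, 16.8 and 16.4 CPM per kb in control and 15.9, 16.2 and 14.96 in UV, and its UV inputs all lay just below its control inputs. Hnrnpll, known for splicing of CD45 in lymphocytes, had a mean of 2.32, and Srsf12 was close to the limit of detection at 0.154, 0.196 and 0.165 CPM per kb in control and 0.108, 0.212 and 0.183 in UV.

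**Figure D1:**
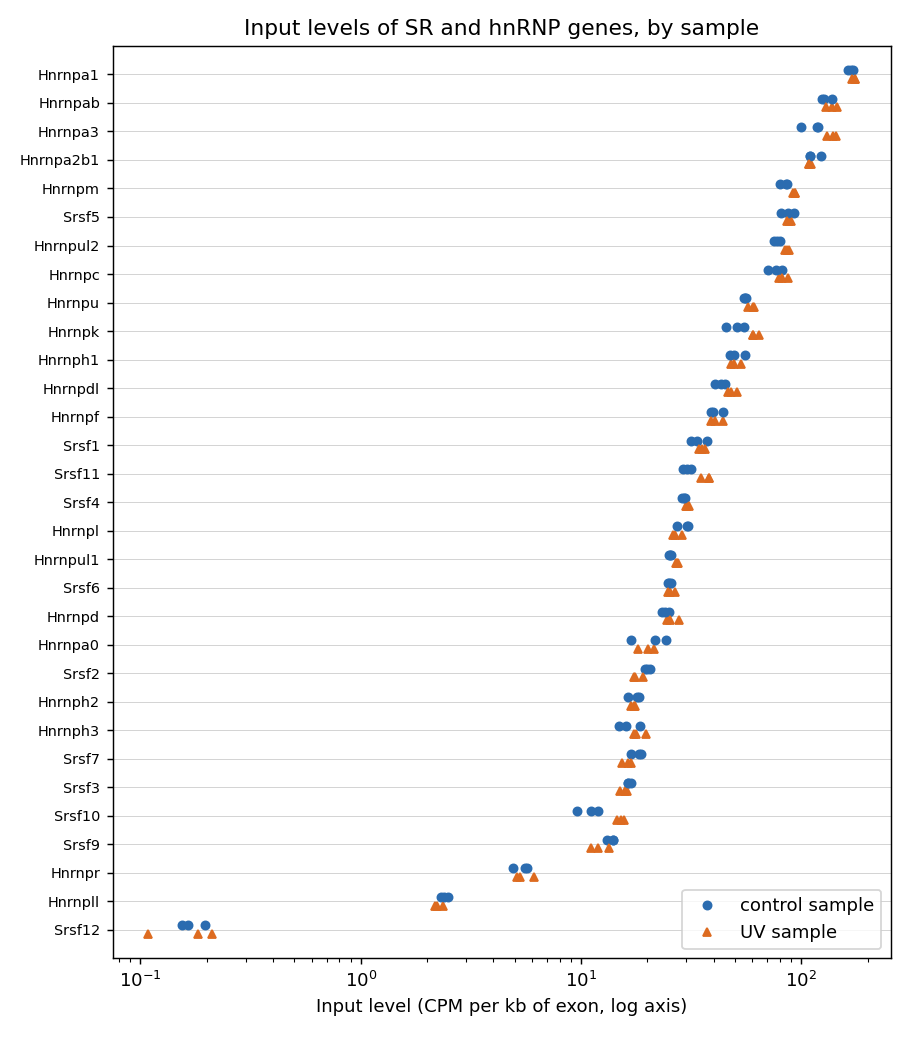
Input level of each SR and hnRNP gene in each of the 6 samples, in CPM per kb of exon on a log axis, with circles for control and triangles for UV samples. Genes are ordered by their mean, from 0.17 in Srsf12 to 170 in Hnrnpa1, and the 2 conditions overlap in most rows.

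In expression between UV and control skin 1 of the 31 genes passed the test, against 5.83% of all genes. Srsf10, which turns into a general splicing repressor when it loses its phosphates in heat shock, rose. It was measured at 67.4, 84.0 and 77.9 CPM in the control inputs and 109, 106 and 102 CPM in the UV inputs, so every UV input lay above every control input. The log2 change was 0.47 (SE 0.0952, adjusted p = 0.0297), from edgeR's quasi-likelihood test over 24099 genes. Of all genes 3.02% were called higher and 2.81% lower, so 1 call in 31 is no more than that background. The Srsf10 call rested on most of the samples. Leaving out Control 1 gave an adjusted p of 0.0748, and leaving out UV 1, UV 2 or UV 3 gave 0.124, 0.0891 or 0.0832. Scaling by library size alone gave 0.0746, with log2 changes from 0.37 to 0.54 over all settings.

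The other members stayed short of the threshold. Hnrnpa3 was measured at 641, 538 and 635 CPM in the control inputs and 748, 772 and 704 CPM in the UV inputs, a log2 change of 0.29 (SE 0.101, adjusted p = 0.121). Srsf11 gave 246, 266 and 255 CPM in the control inputs and 294, 321 and 321 CPM in the UV inputs, a log2 change of 0.29 (SE 0.0810, adjusted p = 0.0739). Hnrnpk, a protein that binds runs of C and acts from transcription to translation, gave 257, 309 and 288 CPM in the control inputs and 339.7, 360.3 and 339 CPM in the UV inputs, a log2 change of 0.28 (SE 0.0932, adjusted p = 0.108). On the TMM scale all 3 had UV inputs above control inputs without overlap. Srsf11 and Hnrnpk were called by DESeq2 (adjusted p = 0.0107 and 0.0386) and when the contrast was taken from all 12 libraries (edgeR, 0.0238 and 0.0332). These were the only 2 of 13 alternative settings to call them. Over all genes DESeq2 called 2620 and the contrast from 12 libraries 2143, against 1404 in the main fit. With library size alone the adjusted p was 0.282 for Srsf11 and 0.334 for Hnrnpk (edgeR).

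At the other end, Srsf9 had the lowest log2 change, −0.17 (SE 0.0947, adjusted p = 0.302), from 23.2, 21.7 and 23.1 CPM in the control inputs and 18.4, 22.3 and 19.7 CPM in the UV inputs, and its UV inputs overlapped its control inputs. Srsf3 gave 83.7, 85.7 and 83.8 CPM in the control inputs and 81.2, 82.9 and 76.4 CPM in the UV inputs, a change of −0.07 (SE 0.0722, adjusted p = 0.560). Hnrnpa2b1 had a log2 change of −0.06 (SE 0.0904, adjusted p = 0.727) and Hnrnpc of 0.12 (SE 0.0885, adjusted p = 0.447). For the abundant members Hnrnpa1, Hnrnpab, Srsf1 and Srsf5 the changes were 0.05, 0.08, 0.05 and 0.01, each with an SE of 0.08 to 0.09.

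Over the 31 members the median log2 change was 0.05, against −0.02 for all genes, and 21 members lay above 0 and 10 below. All UV inputs lay above all control inputs in 10 members (Hnrnpa3, Hnrnpdl, Hnrnpk, Hnrnpm, Hnrnpu, Hnrnpul1, Hnrnpul2, Srsf10, Srsf11, Srsf4) and below them in 2 (Srsf2 and Srsf3), where the background over all genes was 15.5% each way. These counts followed the scaling. With library size alone the median of all genes moved to −0.12 and that of the members to −0.05, 12 members lay above 0, and 1 member (Srsf10) had its UV inputs above its control inputs against 8.95% of genes.

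**Figure D2:**
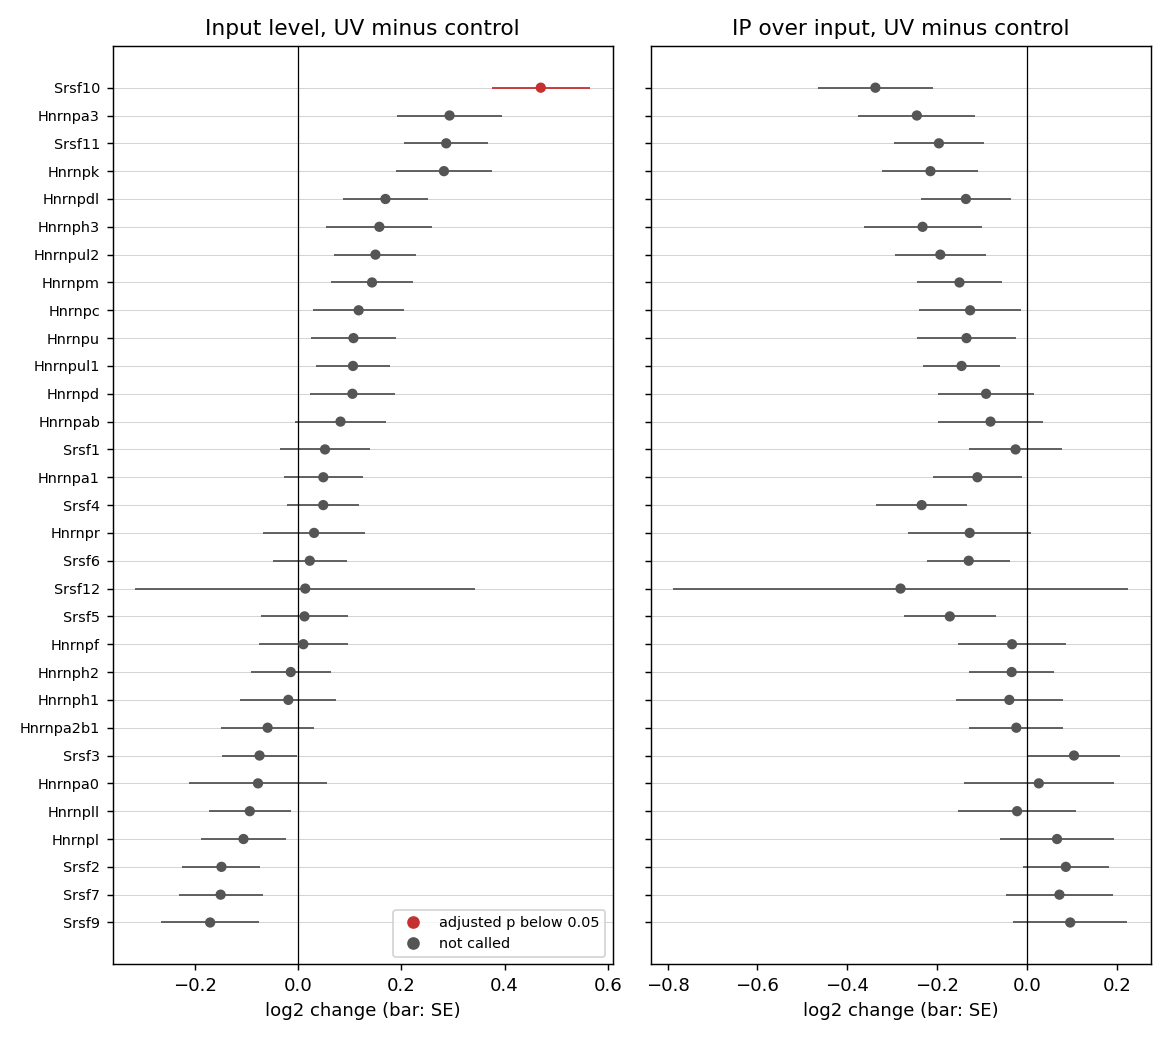
Log2 change between UV and control for each SR and hnRNP gene, in input level (left) and in IP over input (right), with bars for the SE, and red for an adjusted p below 0.05. Srsf10 at the top is the 1 gene called in input level (0.47) and has the lowest change of IP over input (−0.34, not called), and both panels share the 6 input libraries.

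Summed markers of fibroblasts, skeletal muscle, sebocytes, blood cells and adipocytes did not overlap between the conditions in the same inputs, while those of keratinocytes, hair and proliferation did. Keratinocyte markers (6 genes) ran from 14775 to 48132 CPM in control and 43351 to 66688 in UV, and fibroblast markers (6 genes, 3 called lower) from 8475 to 9442 against 5957 to 7000.0. Skeletal muscle markers (9 genes, 2 called lower) ran from 5166 to 12180.3 against 1958 to 5137, sebocyte markers (4 genes, 3 called higher) from 929.6 to 1274 against 1790.3 to 2071, and blood cell markers (6 genes, 3 called lower) from 96.1 to 113 against 71.2 to 79.6. Adipocyte markers (5 genes, 1 called higher) ran from 199 to 225 against 253 to 306, hair markers (6 genes) from 3597 to 6654 against 1962 to 4569, and proliferation markers (5 genes) from 1195 to 1344 against 1291 to 1500.1. The keratinocyte, hair and proliferation lists had no gene (0) called by edgeR, with 3, 0 and 2 genes at an unadjusted p below 0.05, and DESeq2 called 1, 0 and 1. No marker was at 0, and their part in the changes of the members was not tested.

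IP over input went both ways in the family, and alike in both conditions. In control skin 15 of the 31 members were enriched in the IP and 7 depleted, where 24.6% of the 25022 genes tested were enriched and 25.8% depleted. In UV skin 11 were enriched and 7 depleted, against 24.7% and 24.3% of genes. So 7 depleted of 31 is no more than that background in either condition. The 11 enriched in both were Hnrnpa0, Hnrnpa3, Hnrnpc, Hnrnpd, Hnrnpdl, Hnrnpf, Hnrnpl, Hnrnpm, Hnrnpr, Srsf4 and Srsf11. The 7 depleted in both were Srsf1, Srsf2, Srsf3, Srsf6, Srsf9, Hnrnph1 and Hnrnpk. Among hnRNP genes 13 of 20 were enriched in control and 2 depleted, with a median log2 ratio of 0.31 in control and 0.18 in UV, and among SR genes 2 of 11 were enriched and 5 depleted, with medians of 0.06 and −0.13. The median over all genes was −0.04 in control and −0.01 in UV.

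The SR genes held both ends of the range. Srsf11 (chr3:158010473-158036639), which works with U2AF at the 3′ splice site, had log2 ratios of 1.24, 1.20 and 1.27 in the control samples and 1.05, 1.08 and 1.00 in the UV samples. The fitted log2 enrichment was 1.24 ± 0.07 (SE) in control skin, with an adjusted p of 6.76e-08, and 1.04 ± 0.07 (SE) in UV skin, with an adjusted p of 2.59e-07, by edgeR's quasi-likelihood test. Srsf4 (chr4:131873617-131901706), the SR protein with one of the longest arginine-serine domains, had 1.13, 1.37 and 1.19 in the control samples and 0.89, 1.06 and 1.02 in the UV samples. Its fitted enrichment was 1.23 ± 0.07 (SE) in control skin, with an adjusted p of 8.01e-08, and 0.99 ± 0.07 (SE) in UV skin, with an adjusted p of 4.02e-07 (edgeR). In both genes every UV sample lay below every control sample, and every sample lay far above 0.

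Srsf3 (chr17:29032673-29043366), which also helps export mRNA from the nucleus, had the lowest ratios of the family, −1.21, −1.02 and −1.20 in the control samples and −1.07, −1.07 and −0.97 in the UV samples. Its fitted value was −1.14 ± 0.07 (SE) in control skin, with an adjusted p of 1.47e-07, and −1.04 ± 0.07 (SE) in UV skin, with an adjusted p of 3.23e-07 (edgeR), the lowest of the 31 in both conditions. Srsf1 (chr11:88047373-88053755) had −0.56, −0.76 and −0.61 in the control samples and −0.71, −0.62 and −0.69 in the UV samples, and Srsf2 (chr11:116849901-116853094), the protein used to mark nuclear speckles, had −0.67, −0.51 and −0.57 in the control samples and −0.41, −0.55 and −0.52 in the UV samples. Their fitted values were −0.65 in control and −0.67 in UV skin, and −0.58 in control and −0.50 in UV skin, all called. Srsf6 and Srsf9 were depleted less, at −0.21 in control and −0.34 in UV, and −0.35 in control and −0.25 in UV. The Srsf9 call was lost on leaving out Control 1 (adjusted p = 0.0502 in control and 0.0529 in UV skin, edgeR), Control 3 (0.0529 in control), UV 2 (0.146 in UV) or UV 3 (0.165 in UV). The Srsf6 call in control skin was lost without Control 1 (0.115, edgeR) or Control 3 (0.0866).

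Srsf10, Srsf5, Srsf7 and Srsf12 were not called in either condition in the fit without pairing. Srsf10 had 0.27, 0.10 and 0.25 in the control samples and −0.25, −0.01 and −0.15 in the UV samples: every control sample was above 0 and every UV sample below it. Srsf5 had −0.02, 0.15 and 0.12 in the control samples and −0.07, −0.08 and −0.12 in the UV samples, close to 0 throughout. Srsf7, a partner of Srsf3 in export, had 0.12, 0.03 and 0.02 in the control samples and 0.06, 0.13 and 0.19 in the UV samples, on the positive side in all 6. Srsf12 had 0.35, 0.68 and 0.34 in the control samples and 0.79, 0.38 and −0.50 in the UV samples, a spread that goes with its 12 to 74 reads per library.

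Of the A/B-type hnRNPs, Hnrnpa0 and Hnrnpa3 stood highest. Hnrnpa0 (chr13:58125879-58128556), a gene without introns, had 0.55, 1.06 and 0.66 in the control samples and 0.75, 0.76 and 0.78 in the UV samples, and Control 2 stood above the other 5 samples. Hnrnpa3 (chr2:75659261-75669407) had 0.64, 0.93 and 0.83 in the control samples and 0.51, 0.60 and 0.55 in the UV samples, with all UV samples below all control samples. The fitted enrichments were 0.74 in control and 0.77 in UV, and 0.80 in control and 0.55 in UV skin. Hnrnpa1 and Hnrnpa2b1, the most studied of the group, were called in neither condition: Hnrnpa1 had −0.02, 0.12 and −0.00 in the control samples and −0.15, −0.03 and −0.05 in the UV samples, and Hnrnpa2b1 0.13, −0.12 and 0.09 in the control samples and −0.03, 0.07 and −0.02 in the UV samples. Both straddled 0. Without pairing, Hnrnpab was called enriched in control skin alone, at 0.26 in control and 0.18 in UV. It lost that call without Control 1 (adjusted p = 0.083, edgeR).

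Hnrnpd, known as the AU-rich element binding protein AUF1, had 0.57, 0.83 and 0.76 in the control samples and 0.68, 0.61 and 0.59 in the UV samples, and its relative Hnrnpdl 0.48, 0.42 and 0.56 in the control samples and 0.35, 0.36 and 0.34 in the UV samples. The UV samples of Hnrnpdl all lay below its control samples, and those of Hnrnpd overlapped. Their fitted enrichments were 0.72 in control and 0.63 in UV, and 0.49 in control and 0.35 in UV skin, called in both. Hnrnpc, which binds runs of U, had 0.77, 0.41 and 0.71 in the control samples and 0.56, 0.49 and 0.46 in the UV samples, with Control 2 as the lowest sample. Hnrnpm, a binder of GU-rich RNA, had 0.65, 0.65 and 0.62 in the control samples and 0.46, 0.55 and 0.45 in the UV samples. Their fitted enrichments were 0.63 in control and 0.51 in UV, and 0.64 in control and 0.49 in UV skin, called in both.

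The H/F group, which binds runs of G, was divided. Hnrnpf was enriched, at 0.44 in control and 0.40 in UV, and Hnrnph1 depleted, with −0.28, −0.57 and −0.37 in the control samples and −0.42, −0.43 and −0.50 in the UV samples and fitted values of −0.41 in control and −0.45 in UV. Hnrnph2 and Hnrnph3 lay between, at 0.12 in control and 0.09 in UV, and 0.21 in control and −0.02 in UV, not called in the fit without pairing. Hnrnpk was depleted, with −0.35, −0.48 and −0.48 in the control samples and −0.63, −0.69 and −0.64 in the UV samples, and all its UV samples lay below its control samples. Its fitted value was −0.44 ± 0.08 (SE) in control skin, with an adjusted p of 3.58e-04, and −0.65 ± 0.08 (SE) in UV skin, with an adjusted p of 1.42e-05 (edgeR). Hnrnpl, which binds CA repeats, and Hnrnpr were enriched in both conditions, at 0.28 in control and 0.35 in UV, and 0.43 in control and 0.30 in UV. Hnrnpl lost its call without Control 2 (adjusted p = 0.089 in control skin, edgeR) or UV 3 (0.0726 in UV), and Hnrnpr without UV 1 (0.0685 in UV) or UV 3 (0.141 in UV).

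In the fit without pairing the U group, nuclear scaffold proteins with an SAP domain, was called in control skin alone. Hnrnpu stood at 0.31 in control and 0.18 in UV, and Hnrnpul1 at 0.30 in control and 0.15 in UV. Hnrnpul2 stood at 0.34 in control and 0.15 in UV skin. All samples of the 3 genes were above 0. The sample numbers paired IP with input, and with the sample as a block these 3 and Hnrnpab were called in UV skin as well (edgeR, adjusted p = 0.000763 for Hnrnpu, 0.00255 for Hnrnpul1, 0.00367 for Hnrnpul2 and 0.000345 for Hnrnpab). The block also called Hnrnph2 (0.0243), Hnrnph3 (0.00528) and Srsf10 (0.00182) as enriched in control, Srsf7 (0.0462) as enriched in UV and Srsf10 (0.0309) as depleted in UV. The blocked counts were 18 enriched and 7 depleted in control and 16 and 8 in UV, where 30% and 31.1% of genes were called in control and 30.4% and 30.1% in UV.

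**Figure D3:**
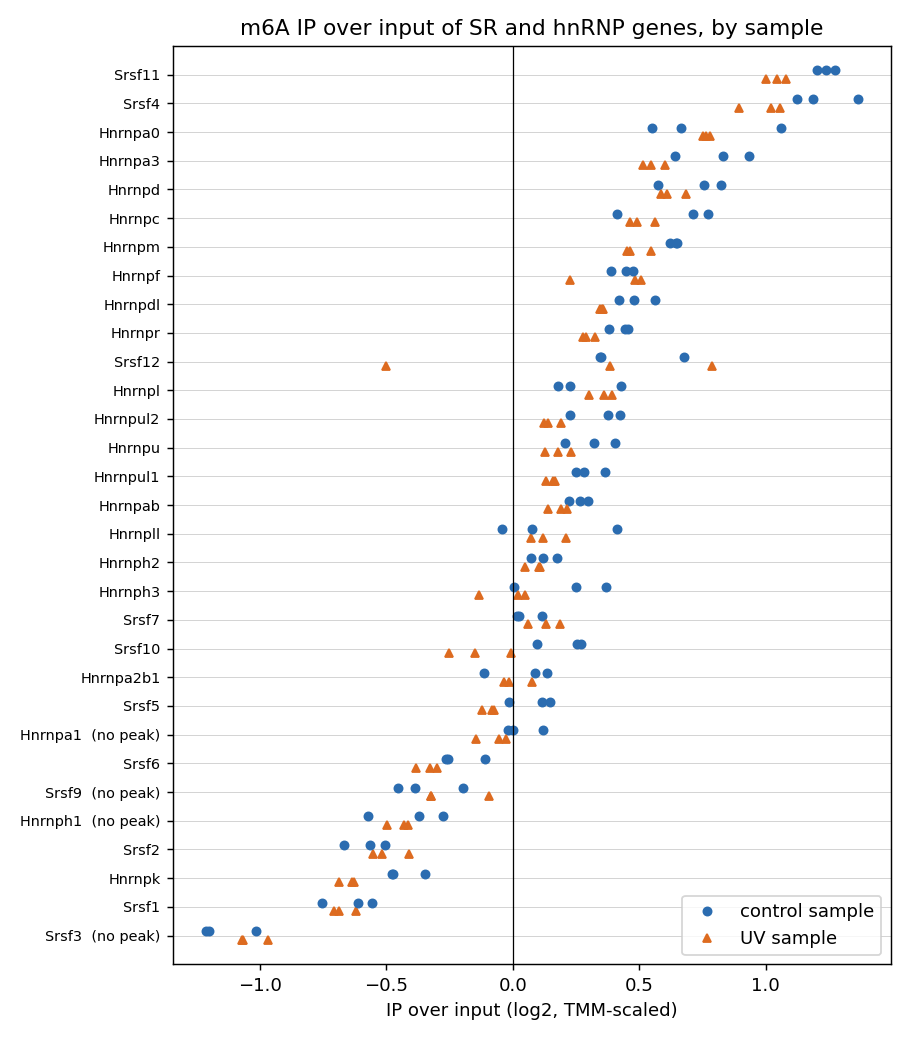
Log2 IP over input of each SR and hnRNP gene in each sample, on the TMM scale with a pseudocount of 0.1 CPM, circles for control and triangles for UV samples, ordered by mean. Srsf11 and Srsf4 sit near or above 1 in most samples and Srsf3 near −1, and the 4 genes with no peak are marked.

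The zero point of these ratios depends on the scaling. With library size alone the median of all genes moved from −0.04 to −0.29 in control and from −0.01 to −0.16 in UV skin, and 7 members were called enriched and 7 depleted in control, and 8 and 9 in UV. The shares of all genes called with library size alone were not counted, so these counts have no background and are not read as a trait of the family. All 7 depleted genes and Hnrnpa0, Hnrnpa3, Hnrnpc, Hnrnpd, Hnrnpm, Srsf4 and Srsf11 kept their calls in control skin under this scaling. The order of the members was close in the 2 conditions, with a Pearson r of 0.978 across the 31 genes and 0.851 across all 25022, as a description across genes that share libraries. The 25022 genes were not matched to the members for read depth, so the higher r is not read as a trait of the family. The ratio showed little relation to exonic length (r = 0.09) or to input CPM per kb (r = 0.04) across the members.

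In edgeR's interaction test without pairing, no member (0 of 31) was called for a change of enrichment between UV and control. Of all 25022 genes 3 (0.012%) were called. At an unadjusted p below 0.05 there were 2 members, against 4.43% of genes, and DESeq2 called none (0). Srsf10 had the lowest change, −0.34 (SE 0.13, adjusted p = 1.00), and Srsf3 the highest, 0.10 (SE 0.10). The log2 change was −0.23 in Srsf4 (SE 0.10), with Hnrnpa3 at −0.25 (SE 0.13), Hnrnpc at −0.13 (SE 0.11) and Hnrnpa2b1 at −0.02 (SE 0.10). With the sample as a block, Srsf10 was called (edgeR, −0.34, SE 0.07, adjusted p = 0.0180), where 1.59% of genes were. Its 2 readouts share the input libraries, in which it was the 1 member called in expression, so they are not independent.

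Most of the fitted changes lay below 0. Their median was −0.13 over the members, against −0.00 over all genes, and 25 of 31 members lay below 0, against 50.3% of genes. A median below 0 was not particular to the members, as each list of related splicing genes described below had one too. It was −0.12 in the SR-like proteins, −0.11 in the nonsense-mediated decay list and −0.02 in the hnRNP proteins under other symbols. All 3 UV samples lay below all 3 control samples in 14 members (Hnrnpa1, Hnrnpa3, Hnrnpab, Hnrnpdl, Hnrnpk, Hnrnpm, Hnrnpr, Hnrnpul1, Hnrnpul2, Srsf4, Srsf5, Srsf6, Srsf10, Srsf11), where 9.1% of genes did, and above them in none (0), where 8.09% of genes did. These counts followed the scaling too: with library size alone the median of all genes was 0.09 and that of the members −0.03, 17 members lay below 0, and 2 members (Hnrnpul1 and Srsf4) had all UV samples below control, against 3.42% of genes, and 4 (Hnrnpl, Srsf2, Srsf3, Srsf7) all above, against 15.3%.

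Peaks place the enrichment within the transcripts. The 99 peaks, 54 from the UV arm and 45 from the control arm, merged into 58 sites: 36 listed in both arms, 15 in the UV arm alone and 7 in the control arm alone. The whole table held 24969 UV-arm and 18020 control-arm peaks. The spans of the member peaks ran from 60 to 13389 bases with a median of 269, the longest crossing introns. At least 1 peak lay in 27 of the 31 genes. Over all peaks, 12247 genes had at least 1, where counts were given for 49492 genes. Those 49492 include genes that failed the filter on low counts, which all 31 members passed. The share with a peak among genes of similar level was not counted, so 27 of 31 is not read as a trait of the family. Hnrnpa1, Hnrnph1, Srsf3 and Srsf9 had none, and of these 4 Hnrnph1, Srsf3 and Srsf9 were depleted in both conditions.

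By the exon under the middle of the peak, with the exons of a gene's transcripts merged, 29 of the 99 member peaks (29.3%) lay in the first exon, against 11.8% of all peaks in the table. The last exon held 36 (36.4%, against 47.8%) and internal exons 28 (28.3%, against 34.9%), and the 6 others were in the intronless Hnrnpa0 (6.06%, against 5.51% in such genes). Counted as sites, 18 of the 58 were in the first exon, 16 internal, 21 in the last exon and 3 in Hnrnpa0. Hnrnpf, with 8 peaks over 2 sites, was listed with a pair of overlapping peaks per site in each arm, so its peaks are not independent. Nor are the UV-arm and control-arm peaks over the same site in other genes.

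**Figure D4:**
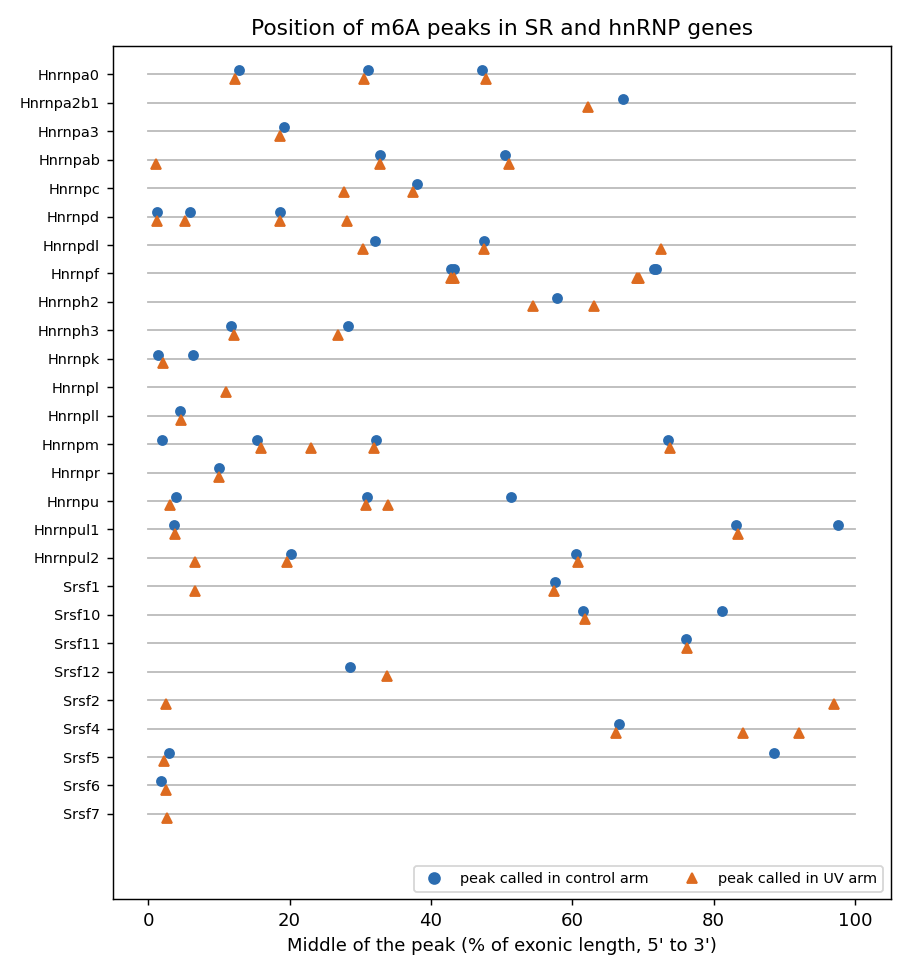
Middle of each peak along the exonic length of its gene, from 5′ (0%) to 3′ (100%), for the 27 SR and hnRNP genes with a peak, circles for control-arm and triangles for UV-arm peaks. Peaks of Srsf6, Srsf7, Hnrnpk and Hnrnpll lie at the 5′ end, while that of Srsf11 lies toward the 3′ end.

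Of the 7 genes depleted in both conditions, 4 held peaks. Of the 99 peaks, 91 had IP over input above 0 in all 6 samples and 83 exceeded their own gene's ratio in all 6, as the way peaks are called would give. Their mean log2 ratios ran from −0.09 to 2.70 with a median of 0.94. Hnrnpa0 had the highest: its UV-arm peak at chr13:58127099-58127455 gave 1.504, 3.18 and 1.71 in control and 2.85, 3.12 and 2.58 in UV samples, and the control-arm peak over the same site gave 1.52, 3.38 and 1.71 in control and 2.95, 3.07 and 2.53 in UV samples. The short control-arm peak at chr13:58127693-58127753 gave 1.29, 3.63 and 2.55 in control and 2.59, 2.53 and 3.58 in UV samples, on inputs of 0.393, 0.0356 and 0.129 CPM in control and 0.160, 0.128 and 0.0149 CPM in UV, which is few reads. In Hnrnpd the first-exon peak at chr5:99978759-99978938, which covers the start printed above, gave 1.26, 2.18 and 1.87 in control and 1.66, 1.44 and 1.48 in UV samples.

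Hnrnpk, Srsf6, Srsf1 and Srsf2 were the genes depleted overall that had peaks. The first-exon peak of Srsf6 at chr2:162931528-162931707 gave 1.06, 1.76 and 0.91 in control and 1.35, 1.72 and 1.45 in UV samples. The Srsf1 peak at chr11:88051245-88051425 in the last exon gave 0.86, 0.74 and 0.83 in control and 0.94, 0.97 and 0.86 in UV samples. The peak over the Srsf2 start, at chr11:116852945-116853094, gave 0.09, 0.82 and 0.16 in control and 0.93, 0.23 and 0.83 in UV samples. All values of these 3 peaks were above 0, against gene-level ratios below 0 in all 6 samples for these genes. The other Srsf2 peak, in the last exon at chr11:116849901-116850080, gave −0.13, 0.42 and 1.49 in control and 1.14, 0.40 and 0.92 in UV samples, with Control 1 below 0. In Srsf4 the control-arm peak at chr4:131900109-131900815 in the last exon gave 1.48, 1.68 and 1.48 in control and 1.16, 1.37 and 1.30 in UV samples, and in Srsf11 the peak at chr3:158011970-158017813, which crosses introns, gave 1.37, 1.38 and 1.42 in control and 1.18, 1.22 and 1.13 in UV samples.

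In edgeR's interaction test without pairing, no member peak (0 of 98) was called for a change between UV and control. None (0%) of the 41273 peaks tested was called. At an unadjusted p below 0.05 there were 14 member peaks, against 8.13% of all peaks, and the lowest adjusted p was 0.518. Some of the 14, as in Hnrnpa0 and Hnrnpm, were UV-arm and control-arm peaks over the same site. They are thus not independent, and no excess is read from them. The authors' deposited table gave an FDR below 0.05 to 45 of 42986 peaks (0.105%), and to no member peak (0). The smallest FDR of a member peak in the authors' deposited table was 0.617, at the UV-arm peak of Hnrnpdl at chr5:100034857-100034946.

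The member peaks with the smallest p went both ways. The Hnrnpk control-arm peak at chr13:58402082-58402142 gave 1.16, 1.28 and 0.95 in control and 0.45, 0.59 and 0.73 in UV samples, without overlap. Its IP levels were 59.6, 67.8 and 57.8 CPM in control and 58.6, 62.7 and 65.2 CPM in UV, and overlapped, while its input levels were 26.6, 28.0 and 29.9 CPM in control and 42.7, 41.6 and 39.3 CPM in UV, all UV above all control. The change was −0.54 (SE 0.13, adjusted p = 0.518) by edgeR, and with the sample as a block it was called (−0.54, SE 0.10, adjusted p = 0.00593, edgeR), where 0.979% of peaks were. The authors' deposited table gave this peak a log2 fold change of −0.54 and an FDR of 0.856. A RefSeq start of Hnrnpk lies within it. GGAC was among the first 50 transcribed bases but past the first 30, and whether it lies under the peak was not determined. The start is printed as above with capitals for the first 30.
Hnrnpk chr13:58402088-58402147 (minus strand): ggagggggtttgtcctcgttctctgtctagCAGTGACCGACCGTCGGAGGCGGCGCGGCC
The printed window covers most of the peak.

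In the Srsf1 first-exon peak of the UV arm at chr11:88047702-88047791 the ratios were 0.49, 0.80 and 0.70 in control and 1.37, 1.13 and 1.28 in UV samples, again without overlap. The IP levels were 2.40, 3.61 and 2.91 CPM in control and 2.497, 2.56 and 2.58 CPM in UV, and the input levels 1.68, 2.03 and 1.75 CPM in control and 0.906, 1.12 and 1.00 CPM in UV, where UV lay below control. The change was 0.60 (SE 0.26, adjusted p = 0.593) by edgeR. The Hnrnpa0 UV-arm peak at chr13:58127099-58127455 had a log2 change of 0.97 (SE 0.35, adjusted p = 0.548), with Control 2 on the level of the UV samples. Its input levels were 1.74, 0.712 and 1.77 CPM in control and 0.800, 0.604 and 0.732 CPM in UV.

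The largest fitted changes came from peaks with almost no input reads. The Hnrnpdl UV-arm peak at chr5:100034857-100034946 had a log2 change of 2.15 (SE 0.71, adjusted p = 0.540) on inputs of 0.196, 0.356 and 0.209 CPM in control and 0.0267, 0.0732 and 0.0598 CPM in UV. The Hnrnpul1 control-arm peak at chr7:25721345-25721405 had a log2 change of 2.25 (SE 0.89, adjusted p = 0.574), and 2 of its 3 UV inputs had no read. Such fitted folds depend on the prior count and are no measure of size. The Hnrnpl UV-arm peak at chr7:28810885-28811063 had a log2 change of 0.32 (SE 0.17, adjusted p = 0.640).

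Downward, the Srsf5 UV-arm peak at chr12:80945504-80945681, over the start printed above, gave 1.00, 1.33 and 1.30 in control and 0.75, 1.02 and 0.87 in UV samples. The change was −0.32 (SE 0.14, adjusted p = 0.593) by edgeR, and UV 2 lay just above Control 1. The Srsf4 control-arm peak had a log2 change of −0.27 (SE 0.12, adjusted p = 0.593), with all UV samples below all control samples. The Hnrnph3 control-arm peak at chr10:63018018-63018197 had a log2 change of −0.42 (SE 0.17, adjusted p = 0.586) and the Hnrnpm control-arm peak at chr17:33677354-33685510 of −0.29 (SE 0.12, adjusted p = 0.591). The Srsf10 control-arm peak in the last exon at chr4:135865813-135867302 gave 0.50, 0.79 and 0.67 in control and 0.58, 1.01 and 0.89 in UV samples, a change of 0.20 (SE 0.20, adjusted p = 0.840), of the opposite sign to that of the whole gene. A second Srsf10 control-arm peak in the last exon, at chr4:135868560-135868620, gave 1.84, 1.02 and 1.11 in control and −0.85, 0.71 and 0.89 in UV samples, without overlap. Its change was −1.13 (SE 0.51, adjusted p = 0.601), of the same sign as the gene, on inputs of 0.257, 0.321 and 0.354 CPM in control and 0.587, 0.421 and 0.359 CPM in UV, and UV 1 was far below the other samples.

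Related splicing genes, in 7 lists of 110 genes of which 109 were tested, gave 2 calls in expression, both higher, where 5.83% of all genes were called, so the lists held no more calls than that background. Rnps1, a component of the exon junction complex, had 53.5, 56.8 and 54.0 CPM in control inputs and 68.7, 70.4 and 64.8 in UV inputs (log2 0.31, edgeR adjusted p = 0.0487). Khdrbs3, a tissue splicing regulator, had 6.74, 6.51 and 8.60 CPM in control and 13.1, 12.4 and 13.7 in UV (log2 0.84, edgeR adjusted p = 0.0125).

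In m6A enrichment the SR-like proteins, most of which carry arginine-serine domains without the Srsf name, were enriched in most members. The shares of all genes to set beside the counts of each list are 24.6% enriched and 25.8% depleted in control, and 24.7% and 24.3% in UV skin. Of 20, 18 were enriched in control and 17 in UV skin, with medians of 0.83 and 0.68, and Tra2b was depleted in both. Scaf4, a regulator of transcript ends, stood highest at 1.51 in control and 1.40 in UV, and Acin1, Scaf8 and Scaf11 at 1.03, 0.96 and 0.92 in control. The nonsense-mediated decay list had 9 of 15 enriched and 3 depleted in control, and 8 and 3 in UV, with Upf2 at 1.25 and 1.09, Upf3b at 1.24 and 1.12, Upf3a at 1.18 and 1.00, Smg8 at 1.14 and 1.21 and Smg6 at 1.06 and 0.91.

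The core splicing machinery went both ways: 7 of 16 Sm and snRNP genes were enriched and 7 depleted in each condition, with Snrnp70 at 0.93 and Snrpb at −1.63 in control. The U2AF and SF3 list had 3 enriched and 5 depleted of 13 in control, and 2 and 5 in UV, with Sf3b5 at 1.12 and Sf3b3 at −0.98 in control. Of 14 hnRNP proteins under other symbols 5 were enriched and 4 depleted in each condition, among them Tardbp at 1.01 and Pcbp2 at −1.04 in control. The kinases and importers of SR proteins had 4 enriched and 2 depleted of 12 in each, with Prpf4b at 1.01 and Clk4 at −0.46 in control. The tissue splicing regulators had 6 enriched and 6 depleted of 19 in control and 4 and 8 in UV, with Elavl1 at −0.89 in control. The counts enriched in the U2AF and SF3 list, the kinases and importers, the other hnRNP proteins and the tissue regulators lay near the shares of all genes, and nothing is read from them.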

How the data were processed

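The files were a table of raw read counts per gene and a table of raw read counts per peak for 12 libraries, as deposited by the authors, with the authors' log2 fold change, p-value and FDR per peak per the file headers. GRCm38 and STAR 2.5.3a are named in the submitters' processing notes. For the counter, annotation, strand setting, handling of duplicates and peak caller, each is not given in the sources used here. Of counts from 1 to 20, 79.5% to 83.6% were even, as if each mate had been counted, so counts exceed fragments. The members, lists and tests were chosen with earlier results of these data known.

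Counts were scaled with TMM, filtered with filterByExpr and tested in edgeR 4.0.16 (R 4.3.3) by its quasi-likelihood F test. Calls needed a p below 0.05 after Benjamini-Hochberg adjustment over all genes or peaks. Expression used the 6 inputs, and enrichment and its change between conditions used 12 libraries with 4 group means. Peaks took library sizes and TMM factors from the gene table. Alternatives were other scalings, no filter, halved counts, DESeq2 1.42.0, the replicate block and leaving out samples. The gene-level tests of expression and of the change of enrichment were tried on simulated counts. The peak fit, the enrichment within a condition and the alternatives were not. Per-sample ratios are log2 of IP over input CPM, each plus 0.1. Peak starts count from 0 in the file and from 1 here. Genes, peaks and list members were named by rules on rank of p, level or role. Departures from group means correlated at 0.19 to 0.40 between IP and input of the same number and −0.35 to −0.08 between different numbers, over 25022 genes, so the numbers pair IP with input. They did not pair UV with control inputs (−0.12 to 0.03). Replicates differed by more than counting noise (chi-square per df 48.0 to 167). Sequences are from RefSeq, GRCm38.p6.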

Additional observations from a re-analysis of the deposited data

Results flagged for a closer look

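Srsf10 lay on opposite sides of 0 in the 2 conditions on the TMM scale: its IP over input was above 0 in all 3 control samples (0.27, 0.10 and 0.25 on the log2 scale) and below 0 in all 3 UV samples (−0.25, −0.01 and −0.15). Neither fitted ratio was called without pairing (edgeR, adjusted p = 0.0788 in control and 0.243 in UV skin), and UV 2 lay close to 0. Both were called with the replicate block (edgeR, adjusted p = 0.00182 in control and 0.0309 in UV skin). The fitted change was −0.34. The direct test of the difference gave an adjusted p of 1.00 in the edgeR interaction without pairing and 0.0180 with the replicate block, in which 1.59% of genes were called. The sign within a condition depends on the scaling: with library size alone the fitted ratio was −0.05 in control and −0.29 in UV skin.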

How the results depend on the processing

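With scaling by library size alone no member (0) was called higher in expression, 7 in place of 15 were called enriched in control skin, and the fitted sign turned in 9 of 31 members for expression, 8 for enrichment in control, 6 for enrichment in UV skin and 8 for its change, none of them called. Among these were expression of Srsf5 (−0.087), Srsf1 (−0.049), Hnrnpa1 (−0.053) and Hnrnpab (−0.013), and for Hnrnpa2b1 enrichment in control (−0.22) and UV skin (−0.15) and its change (0.074). DESeq2 and the contrast from all 12 libraries each called 3 members higher in expression. For Hnrnpa2b1 in UV skin median-ratio factors gave −0.0026 and DESeq2 −0.0030. The replicate block called no member (0) higher in expression, with an adjusted p of 0.0589 for Srsf10 (edgeR), 1 member lower in the enrichment change and 1 member peak lower, and the other member counts stayed within 1.5 times. UV and control inputs share only a number, so the loss for Srsf10 is not a paired result. Leaving out 1 sample gave 0 to 1 members called higher in expression. It gave −0.037 to 0.071 for the expression change of Srsf5, and for Hnrnpa2b1 −0.017 to 0.11 in control skin, −0.027 to 0.028 in UV skin and −0.10 to 0.025 for its change. Over all genes, calls in expression were 1404, and leaving out 1 sample gave 219 (without UV 1) to 2100 (without Control 3). They were 713 with the block, 2152 with no low-count filter, 2143 with the contrast from all 12 libraries and 2620 with DESeq2. Calls for the change of enrichment were 399 with the block and 52 with DESeq2, against 3, and 404 peaks were called with the block. Depth limits Srsf12 and the peaks with few input reads.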
